A study of Mus musculus with 6 samples.

Results

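The genes of the HoxA, HoxB and HoxD clusters were described in mouse embryonic fibroblasts (MEFs), the connective tissue cells grown from mouse embryos, that lacked the histone variant H2AX (H2AX KO) or were wild-type (WT). The members were 29 Hox genes of these clusters, and each was read from the probe set that carries its symbol alone. Of these, 28 had such a probe set among 19938 genes measured, 10 in HoxA, 9 in HoxB and 9 in HoxD. The probe set of Hoxb8 also carries the symbol of Hoxb7, so that Hoxb8 is not reported. RNA was hybridised to Affymetrix Gene ST arrays, with 3 arrays of H2AX KO MEFs and 3 arrays of WT MEFs. Both genotypes came from the same laboratory, were grown in DMEM with serum and received no treatment. The number of embryos or lines behind each genotype is not given in the sources used here, so p-values measure only the spread between these arrays, which may be technical.

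Hox genes encode transcription factors that bind DNA through a homeodomain. They stand in clusters on different chromosomes, and genes at matching places in the clusters form paralog groups, numbered from the 3′ end of the cluster. Low-numbered genes are switched on first and farthest towards the head of the embryo, and high-numbered genes later and closer to the tail. Fibroblasts keep much of the Hox pattern of the body site they came from when they are put into culture.

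Expression values were log2 intensities as deposited, and every difference is H2AX KO minus WT, so that a difference of -1 is a level 2-fold lower in H2AX KO MEFs. A gene was called lower or higher at an adjusted p under 0.05 from limma, a linear model that shares the variance over genes, adjusted by Benjamini-Hochberg over all 19938 genes. Since probe sets differ in how strongly they bind, levels were not set against each other between genes. As a guide to faint signal, 1027 olfactory receptor genes, which fibroblasts are not known to use, had a 95th percentile of 5.73 in H2AX KO MEFs and 5.82 in WT MEFs on the log2 scale. Of the olfactory genes, 81 were called lower and 1 higher, so a lower call below the guide need not mean less transcript. Values near or below the guide are also open to compression, so that a fold change there can understate the change in RNA. In bulk RNA, fewer cells with a transcript and less of it per cell cannot be told apart.

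H2ax itself had log2 values of 7.67 to 7.77 on H2AX KO arrays and 8.96 to 9.18 on WT arrays. It was 2.53-fold lower in H2AX KO MEFs, where its probe set still stood above the faint-signal guide, and the position of its probes relative to the deletion is not known here. The 10 fibroblast markers all lay above the guide in both genotypes. Their array means were 10.99 to 11.04 in H2AX KO MEFs and 10.35 to 10.44 in WT MEFs. Most of this shift came from Thy1, a surface protein of fibroblasts and neurons, and Pdgfrb, a growth factor receptor. Thy1 had a log2 mean of 10.60 in H2AX KO MEFs and 6.57 in WT MEFs, and Pdgfrb was higher by 1.70. Of the 10 markers, 4 were lower and 5 higher, beside 15.0% and 18.4% of all genes. Pdgfra, Col1a1 and Col1a2 were higher by 0.77, 0.60 and 0.43. The lower ones were Col3a1, Col5a1, S100a4 and Fn1, with differences of -0.28, -0.23, -0.47 and -0.29. The 4 neural markers had array means of 6.66 to 6.73 in H2AX KO MEFs and 5.96 to 6.05 in WT MEFs. Of these, Map2, Tubb3 and Sox2 were higher by 1.73, 0.83 and 0.23. Sox10 was not called, with a difference of -0.09 (adjusted p = 0.52 from limma). Epithelial, endothelial and leukocyte marker lists had array means of 4.71 to 5.58 in H2AX KO MEFs and 4.83 to 5.45 in WT MEFs. Of their 13 genes, 2, Cdh5 and Cd14, were lower, near the 15.0% of all genes, and 0 were higher. The 3 Y-linked genes measured, Eif2s3y, Uty and Kdm5d, were lower. Their array means were 4.39 to 4.47 in H2AX KO MEFs and 7.90 to 8.05 in WT MEFs. All 3 lay below the guide in H2AX KO MEFs and above it in WT MEFs, so the genotypes also differed in Y-linked signal. The knockout, the sex or Y chromosome content of the cells and other differences between the embryos of origin cannot be told apart. The part of these differences in the Hox results was not tested.

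Many HoxA and HoxB genes were lower in H2AX KO MEFs, and no HoxD gene was called. Of the 28 members measured, 14 were lower and 0 were higher, against 15.0% of all genes called lower and 18.4% called higher. The calls were 7 of 10 in HoxA, 7 of 9 in HoxB and 0 of 9 in HoxD. The median difference was -0.56 in HoxA, -1.18 in HoxB and 0.00027 in HoxD, beside 0.02 over all genes. A fold change over 2 was passed by 11 of the lower members, 4 in HoxA and 7 in HoxB, against 3.18% of all genes. Every H2AX KO array was below every WT array in 16 members, against 19.5% of all genes, and every H2AX KO array was above every WT array in 0 members, against 25.3% of all genes. The one-way ANOVA used by the study's methods called the same number, 14 lower and 0 higher, beside 2165 lower and 2544 higher of all 19938 genes. The study's own list also required a fold change over 2. At an unadjusted p under 0.05 from limma the counts were 15 lower and 0 higher, beside 3597 and 4535 of all genes.

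**Figure D1:**
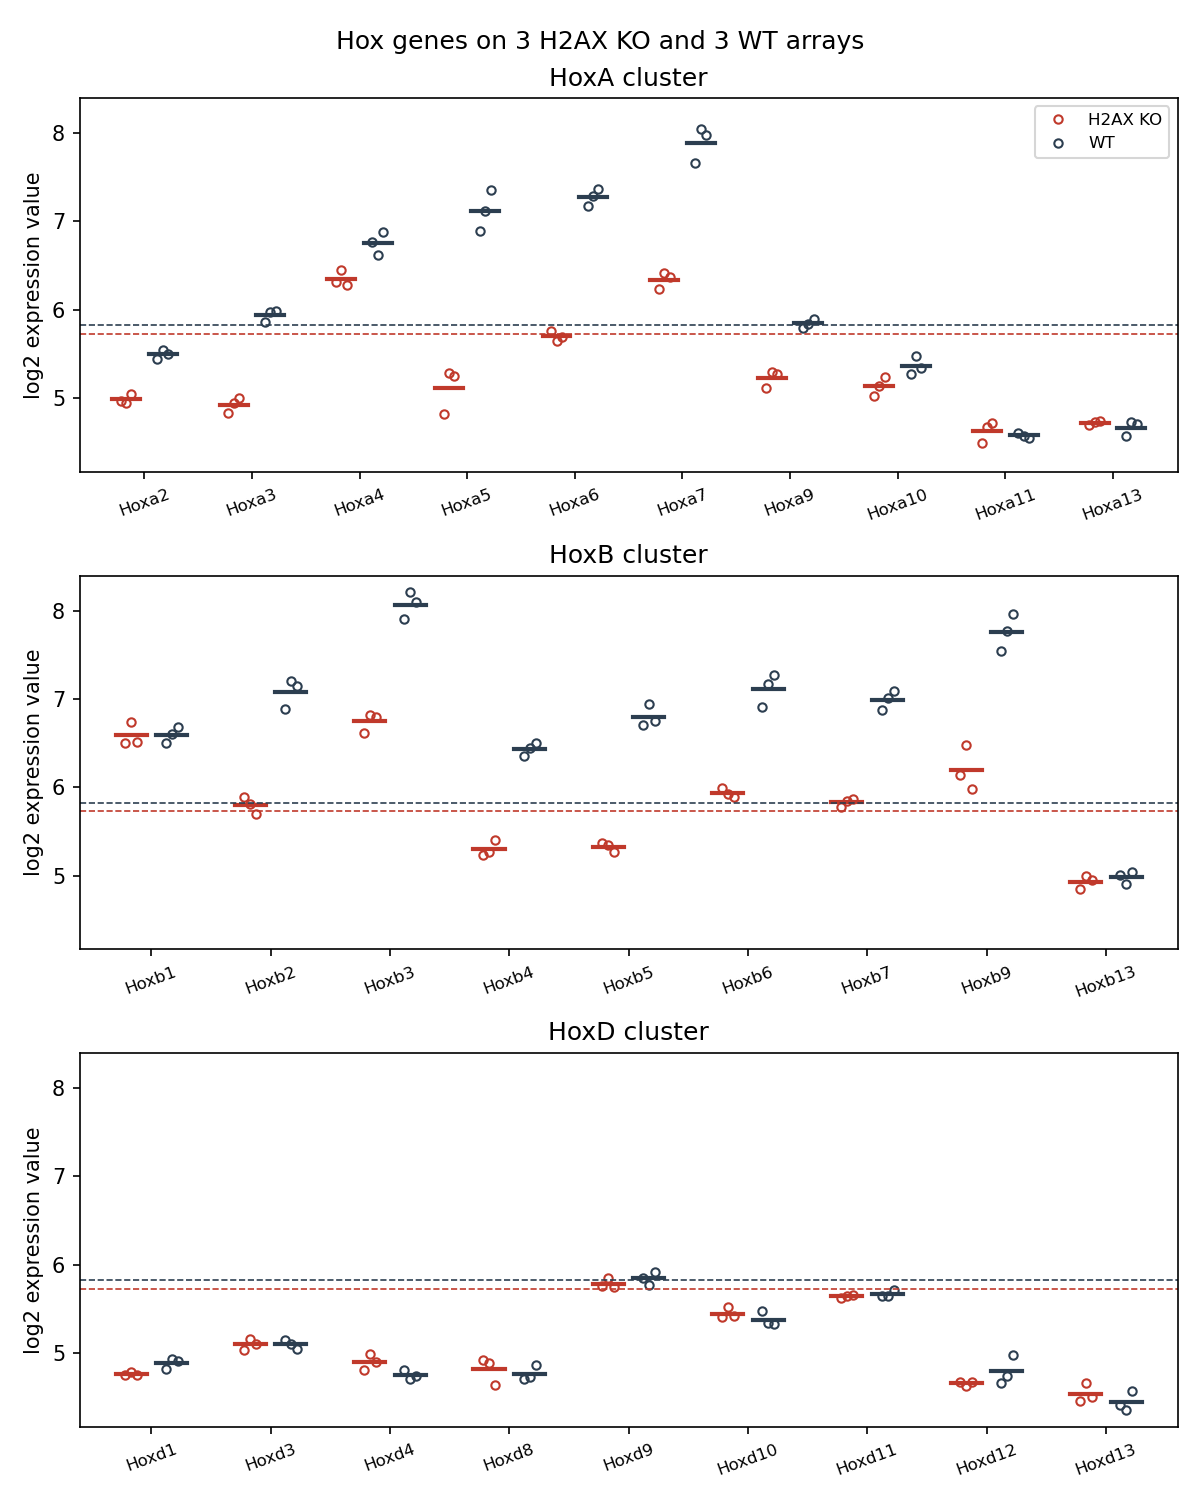
Log2 expression of the measured HoxA, HoxB and HoxD genes on each array, with H2AX KO arrays to the left of WT arrays for each gene and the dashed lines at the 95th percentile of olfactory receptor genes in each genotype. The arrays of the genotypes stand apart for Hoxa5, Hoxa6, Hoxa7 and Hoxb2 to Hoxb9, while HoxD arrays overlap or lie close together.

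Within HoxA, the largest called differences were those of Hoxa5, Hoxa6 and Hoxa7. Hoxa5, which patterns the lung and the lower neck, had log2 levels of 4.82, 5.28 and 5.25 on H2AX KO arrays and 6.89, 7.11 and 7.36 on WT arrays. It was 4.01-fold lower in H2AX KO MEFs (log2 difference -2.003, standard error 0.14, adjusted p = 3.2e-06 from limma). Its H2AX KO arrays lay below the olfactory guide. Hoxa6, its neighbour, had 5.76, 5.65 and 5.70 on H2AX KO arrays and 7.18, 7.29 and 7.36 on WT arrays. The genotypes did not overlap, and the log2 difference was -1.58 (standard error 0.07, adjusted p = 1.1e-07 from limma), with the H2AX KO mean just below the guide. Hoxa7, which acts on thoracic vertebrae, had 6.24, 6.42 and 6.37 on H2AX KO arrays and 7.66, 8.04 and 7.97 on WT arrays. Its difference of -1.55 on the log2 scale (standard error 0.10, adjusted p = 1.9e-06 from limma) left it above the guide in both genotypes.

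HoxA genes on either side of these had smaller differences. Hoxa3, needed for the thymus and parathyroid, had log2 levels of 4.83, 4.95 and 5.00 on H2AX KO arrays and 5.86, 5.97 and 5.99 on WT arrays, a log2 difference of -1.01 (standard error 0.07, adjusted p = 2.7e-06 from limma). Hoxa2, which sets the identity of the second pharyngeal arch, had 4.97, 4.94 and 5.05 on H2AX KO arrays and 5.44, 5.54 and 5.50 on WT arrays. Its difference of -0.51 (standard error 0.06, adjusted p = 1.6e-04 from limma) was called although both genotypes lay below the guide, alone among the lower members in that respect. Hoxa4, which patterns neck vertebrae, had 6.31, 6.45 and 6.28 on H2AX KO arrays and 6.77, 6.62 and 6.88 on WT arrays. It had the narrowest gap between the genotypes, 0.17 on the log2 scale, and a difference of -0.41 (standard error 0.08, adjusted p = 0.0037 from limma). Hoxa9, a regulator of blood progenitors, had 5.12, 5.30 and 5.27 on H2AX KO arrays and 5.80, 5.84 and 5.90 on WT arrays, a difference of -0.62 (standard error 0.07, adjusted p = 8.8e-05 from limma). RefSeq places Hoxa4, Hoxa5 and Hoxa6 inside the span of a long Hoxa3 transcript, so signal of these genes may not be fully separate.

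The 5′ end of HoxA was not called. Hoxa10, which patterns the lumbar spine and the uterus, had log2 levels of 5.02, 5.14 and 5.24 on H2AX KO arrays and 5.27, 5.48 and 5.34 on WT arrays. These arrays did not overlap, but its difference of -0.23 missed the threshold (95% interval -0.41 to -0.05, adjusted p = 0.055 from limma), and it is described here after its values were seen. Without WT replicate 1 it passed, at an adjusted p of 0.043 from limma. Hoxa11 and Hoxa13, which act in the forearm and the hand, had log2 differences of 0.05 and 0.05.

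All 7 genes measured from Hoxb2 to Hoxb9 were lower in H2AX KO MEFs. Hoxb2, a hindbrain gene, had log2 levels of 5.89, 5.82 and 5.70 on H2AX KO arrays and 6.88, 7.21 and 7.15 on WT arrays, a log2 difference of -1.28 (standard error 0.09, adjusted p = 4.2e-06 from limma). Hoxb3, which acts in the hindbrain and the organs of the neck, had 6.62, 6.82 and 6.80 on H2AX KO arrays and 7.90, 8.20 and 8.09 on WT arrays, a difference of -1.32 (standard error 0.09, adjusted p = 2.5e-06 from limma). Hoxb4, which promotes the growth of blood stem cells, had 5.23, 5.27 and 5.41 on H2AX KO arrays and 6.35, 6.45 and 6.50 on WT arrays, a difference of -1.13 (standard error 0.07, adjusted p = 1.5e-06 from limma). Each of these was lower on every H2AX KO array, and RefSeq places Hoxb4 within the span of a long Hoxb3 transcript.

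Hoxb5, which helps to place the shoulder along the trunk, had the smallest adjusted p in HoxB. Its log2 levels were 5.37, 5.34 and 5.26 on H2AX KO arrays and 6.71, 6.94 and 6.75 on WT arrays, a difference of -1.47 (standard error 0.08, adjusted p = 3.2e-07 from limma). Hoxb6 had 5.99, 5.93 and 5.89 on H2AX KO arrays and 6.91, 7.17 and 7.28 on WT arrays, a difference of -1.18 (standard error 0.09, adjusted p = 7.1e-06 from limma). For both genes the highest H2AX KO array was well below the lowest WT array. Hoxb7 had 5.78, 5.85 and 5.87 on H2AX KO arrays and 6.88, 7.01 and 7.09 on WT arrays, a difference of -1.16 (standard error 0.07, adjusted p = 1.2e-06 from limma). Hoxb9, which acts on the rib cage, had 6.14, 6.48 and 5.98 on H2AX KO arrays and 7.54, 7.77 and 7.96 on WT arrays. Its difference of -1.56 (standard error 0.14, adjusted p = 1.6e-05 from limma) was the largest in HoxB.

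Both ends of HoxB stood apart from this stretch. Hoxb1, which marks a single hindbrain segment, had 6.50, 6.74 and 6.52 on H2AX KO arrays and 6.51, 6.60 and 6.68 on WT arrays. The genotypes overlapped, with a difference of -0.01 (standard error 0.08, adjusted p = 0.96 from limma). Hoxb13, at the tail end, had a difference of -0.05 and lay below the guide in both genotypes.

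In HoxD, 0 of 9 genes were called in either direction, also at an unadjusted p under 0.05 and by one-way ANOVA. All 95% intervals lay between -0.33 and 0.30 on the log2 scale. Only Hoxd9 was above the guide in WT MEFs, with 5.76, 5.85 and 5.75 on H2AX KO arrays and 5.85, 5.77 and 5.92 on WT arrays, a difference of -0.06 (adjusted p = 0.56 from limma). The other 8 genes, among them the digit genes Hoxd12 and Hoxd13, lay below the guide, where a change would be hard to detect. Hoxd1 was lower on every H2AX KO array, at 4.76, 4.79 and 4.76 against 4.82, 4.93 and 4.91 on WT arrays, and its difference of -0.12 was not called (adjusted p = 0.18 from limma).

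The array means over each cluster, taken from the same values, showed the same split. In WT MEFs, 6 of 10 HoxA genes, 8 of 9 HoxB genes and 1 of 9 HoxD genes lay above the faint-signal guide. Cluster and signal level therefore cannot be told apart here. The mean log2 level of the 10 HoxA genes was 5.23, 5.35 and 5.36 on H2AX KO arrays and 6.00, 6.12 and 6.16 on WT arrays. For the 9 HoxB genes it was 5.82, 5.92 and 5.82 on H2AX KO arrays and 6.74, 6.92 and 6.95 on WT arrays. The 9 HoxD genes gave 5.05, 5.13 and 5.04 on H2AX KO arrays and 5.06, 5.04 and 5.12 on WT arrays, which overlapped. WT replicate 1 was the lowest WT array for 13 of the 14 lower members, as it was for 47.2% of all genes, and without it 15 members were lower, Hoxa10 being the one added.

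By paralog number, the share of lower genes was highest in the middle of the clusters, a difference that was not tested. Of the genes of groups 1 to 3, 4 of 7 were lower, of groups 4 to 8, 8 of 10, and of groups 9 to 13, 2 of 11. The last share is near the 15.0% of all genes called lower. In WT MEFs, 4 of 7, 8 of 10 and 3 of 11 lay above the faint-signal guide, below which a change would be hard to detect. Paralog number and signal level cannot be told apart here. In groups 2, 5, 6 and 7 every measured member was lower. HoxD has no gene of these groups, so that cluster and paralog number are partly the same split. In group 4, Hoxa4 and Hoxb4 were lower while Hoxd4 had a difference of 0.15 (adjusted p = 0.14 from limma). In group 9, Hoxa9 and Hoxb9 were lower and Hoxd9 was not called.

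**Figure D2:**
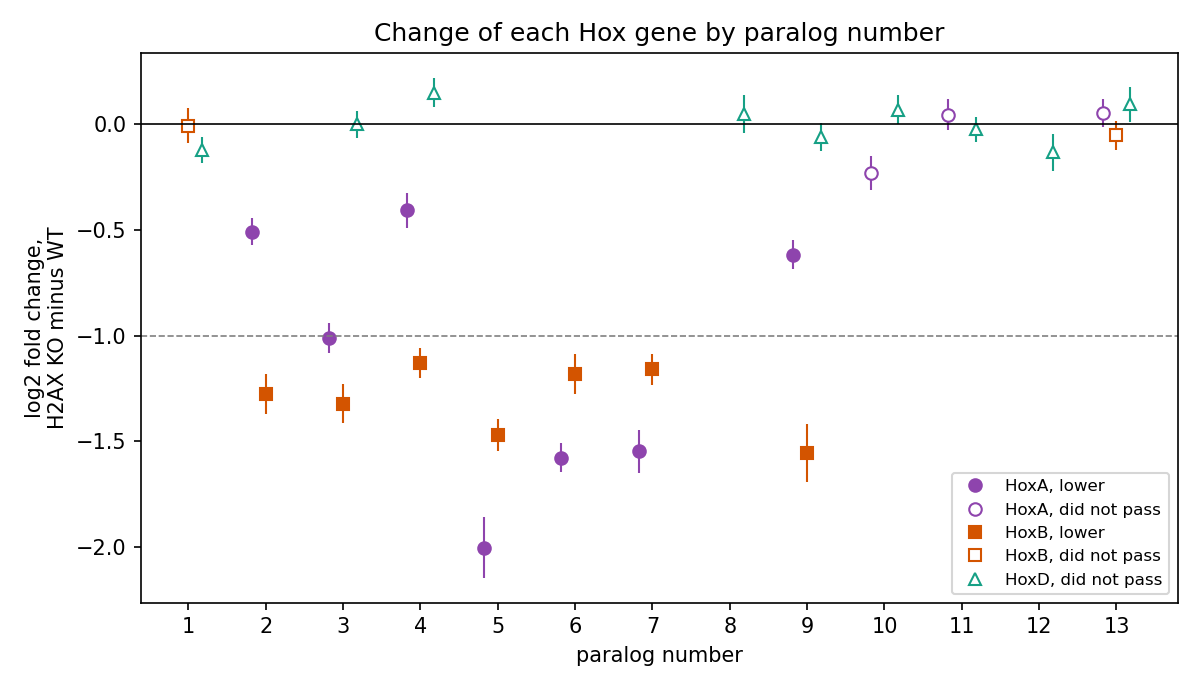
Log2 difference of H2AX KO minus WT with its standard error, by paralog number for each cluster, with filled points for genes called lower and a dashed line at a 2-fold lower level. The lowest points are Hoxa5 at -2.003 in HoxA and Hoxb9 at -1.56 in HoxB, Hoxa13 and Hoxb13 lie near 0, and no HoxD point is called.

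The HoxC cluster moved the same way, with 6 of 9 genes lower and 0 higher, beside 15.0% and 18.4% of all genes. Its median difference was -0.99. At an unadjusted p under 0.05 from limma the counts were 6 and 1, beside 3597 and 4535 of all 19938 genes. Its mean log2 level was 5.07 to 5.15 on H2AX KO arrays and 7.03 to 7.22 on WT arrays. The largest differences in HoxC were -5.34 for Hoxc8, -5.14 for Hoxc6 and -3.61 for Hoxc5 (adjusted p = 8.0e-10, 2.0e-10 and 1.4e-08 from limma), each beyond the -2.003 of Hoxa5.

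The genes that flank the clusters were called in both directions. Of the 5 nearest measured genes on each side of the clusters, 30 in all, 5 were lower and 3 were higher, a count that was 1 with the replicate number as a block. These counts are close to or under the 15.0% of all genes called lower and 18.4% called higher, so they are no result about the flanks as a group. Skap2, an adaptor protein gene next to the 3′ end of HoxA, had 6.78, 6.24 and 6.61 on H2AX KO arrays and 8.44, 8.47 and 8.67 on WT arrays, a difference of -1.98 (adjusted p = 1.7e-06 from limma). Snx10, a sorting nexin gene beyond it, was higher, with 6.95, 6.50 and 6.63 on H2AX KO arrays and 5.42, 5.65 and 5.78 on WT arrays. Next to HoxB 0 of 10 were lower and 1 was higher, and next to HoxD 4 were lower and 0 higher. The 4 beside HoxD, where no Hox gene was called, included Nfe2l2, the gene of the antioxidant regulator NRF2, with a difference of -1.27 (adjusted p = 4.1e-06 from limma).

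**Figure D3:**
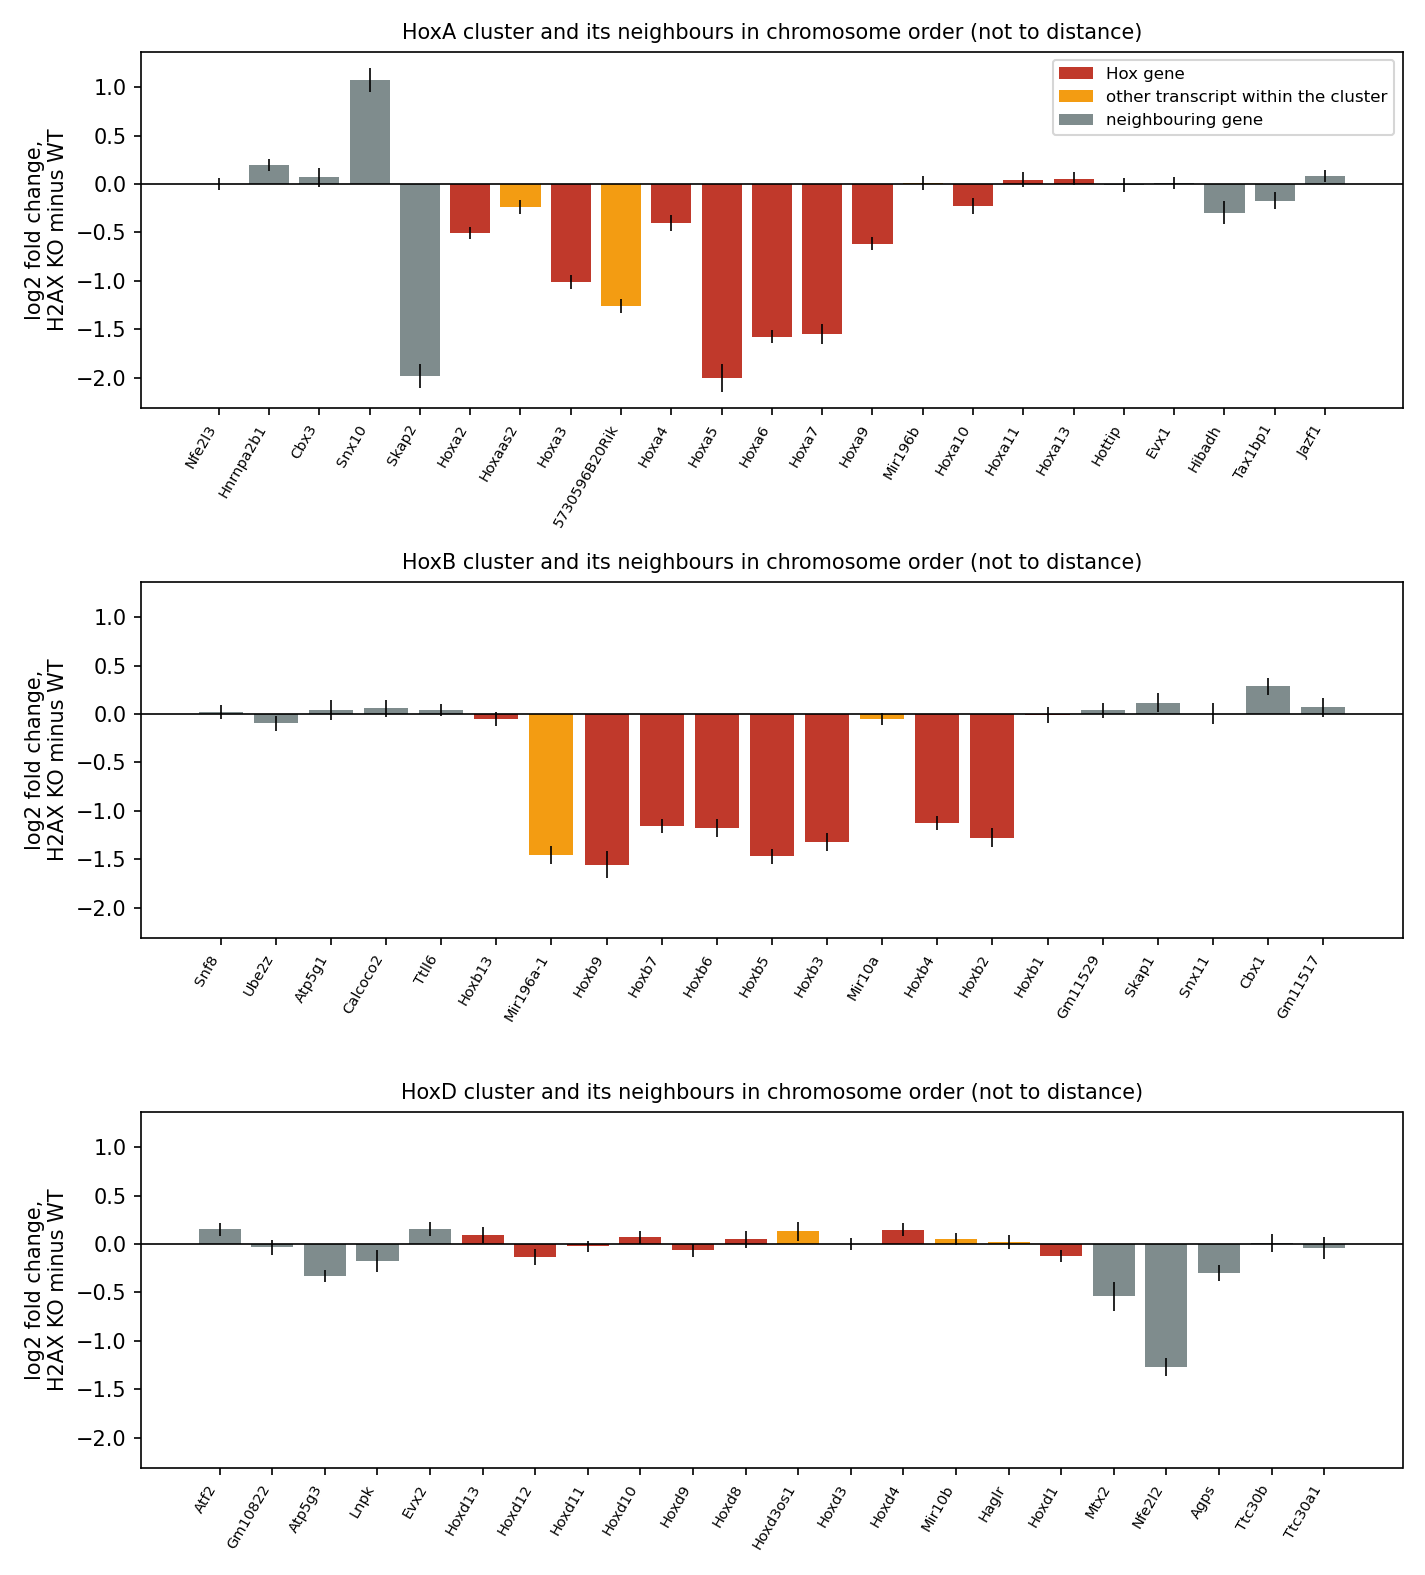
Log2 difference of H2AX KO minus WT with its standard error for each Hox gene and the 5 nearest measured genes on each side, in their order along the chromosome. Lower genes lie within HoxA and HoxB and among the neighbours, with Skap2 beside HoxA and Nfe2l2, Mtx2, Atp5g3 and Agps beside HoxD, while the 9 HoxD genes lie near 0.

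MicroRNA genes stand inside the clusters, and among those measured in HoxA, HoxB and HoxD only Mir196a-1 was called. Their mature sequences are shown because those of each pair differ by a single base. From RefSeq, GRCm38.p6, with the seed (bases 2 to 8) in capitals, they are:
mmu-miR-196a-5p, HoxB, chr11:96265187-96265208, + strand: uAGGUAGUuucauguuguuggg
mmu-miR-196b-5p, HoxA, chr6:52230129-52230150, - strand: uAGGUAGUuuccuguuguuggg
mmu-miR-10a-5p, HoxB, chr11:96317186-96317208, + strand: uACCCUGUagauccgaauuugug
mmu-miR-10b-5p, HoxD, chr2:74726074-74726096, + strand: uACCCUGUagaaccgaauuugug
The members of each pair share their seed. Counted from 1 at the 5′ end, miR-196b carries A12C against miR-196a, and miR-10b carries U12A against miR-10a.

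Of 10 cluster non-coding RNAs with a probe set, 2 were lower and 0 higher, a share of lower RNAs near the 15.0% of all genes. The 10 include Mir196a-2 and Mir615, which lie on chromosome 15 with HoxC. Mir196a-2, which also makes miR-196a, had a difference of 0.003 (adjusted p = 0.98 from limma) and lay below the guide. Mir196a-1, which makes miR-196a and lies in HoxB, had 4.43, 4.66 and 4.43 on H2AX KO arrays and 5.91, 6.13 and 5.86 on WT arrays, a log2 difference of -1.46 (adjusted p = 1.5e-06 from limma). Mir196b in HoxA, Mir10a in HoxB and Mir10b in HoxD had differences of 0.01, -0.05 and 0.05, and all lay below the guide. The array cannot tell a long primary transcript of the host cluster from the mature microRNA, so no change of a mature microRNA can be read from these values. The antisense RNA Hoxaas2 had a difference of -0.24 (adjusted p = 0.029 from limma), and only 1 of the 10 RNAs was lower with the replicate number as a block or by one-way ANOVA. Outside the list, the long non-coding RNA 5730596B20Rik within HoxA, named after its values were seen, had a difference of -1.26 (adjusted p = 8.4e-07 from limma). Its levels were 4.17, 4.22 and 4.26 on H2AX KO arrays and 5.54, 5.34 and 5.55 on WT arrays. Hoxaas2 and 5730596B20Rik lay below the guide in both genotypes. RefSeq has both overlap the span of Hoxa3, so their signal may not be fully separate.

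Hox proteins bind DNA with partner homeodomain proteins of the Pbx, Meis and Pknox families. Of 8 partners measured, 2 were lower and 4 were higher, beside 15.0% of all genes lower and 18.4% higher, with a median difference of 0.13. Meis1 had 7.43, 7.24 and 7.44 on H2AX KO arrays and 8.43, 8.62 and 8.57 on WT arrays, a log2 difference of -1.17 (adjusted p = 2.7e-06 from limma). Pknox2 had 5.06, 5.07 and 5.00 on H2AX KO arrays and 6.17, 6.29 and 6.14 on WT arrays, a difference of -1.16 (adjusted p = 6.2e-07 from limma). Both differences lay within the range of the lower HoxB genes, -1.56 to -1.13. Pbx3, the largest rise, differed by 0.43 (adjusted p = 0.0018 from limma).

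Among 20 regulators of Hox genes measured, 2 were lower and 6 higher, beside 15.0% of all genes lower and 18.4% higher, and the median difference was 0.06 against 0.02 over all genes. Rnf2, a catalytic subunit of Polycomb repressive complex 1, had 9.19, 8.80 and 9.05 on H2AX KO arrays and 9.94, 10.04 and 10.07 on WT arrays. Its log2 mean was 9.02 ± 0.20 in H2AX KO MEFs and 10.02 ± 0.07 in WT MEFs (SD over 3 arrays each, adjusted p = 3.0e-05 from limma). Ring1, the alternative catalytic subunit, was higher by 0.34 (adjusted p = 0.0021 from limma). Bmi1, another subunit, differed by -0.37 (adjusted p = 0.034 from limma), and only 1 regulator was lower without H2AX KO replicate 2, WT replicate 2 or WT replicate 3. Egr2, which activates Hox genes in the hindbrain, was higher, with 6.44, 6.19 and 6.22 on H2AX KO arrays and 5.40, 5.63 and 5.58 on WT arrays. Kmt2a, a histone methyltransferase that maintains Hox transcription, was higher by 0.38 (adjusted p = 0.0047 from limma). Ezh2, Eed and Suz12 of Polycomb repressive complex 2 were not called, with differences of 0.13, 0.01 and 0.07.

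**Figure D4:**
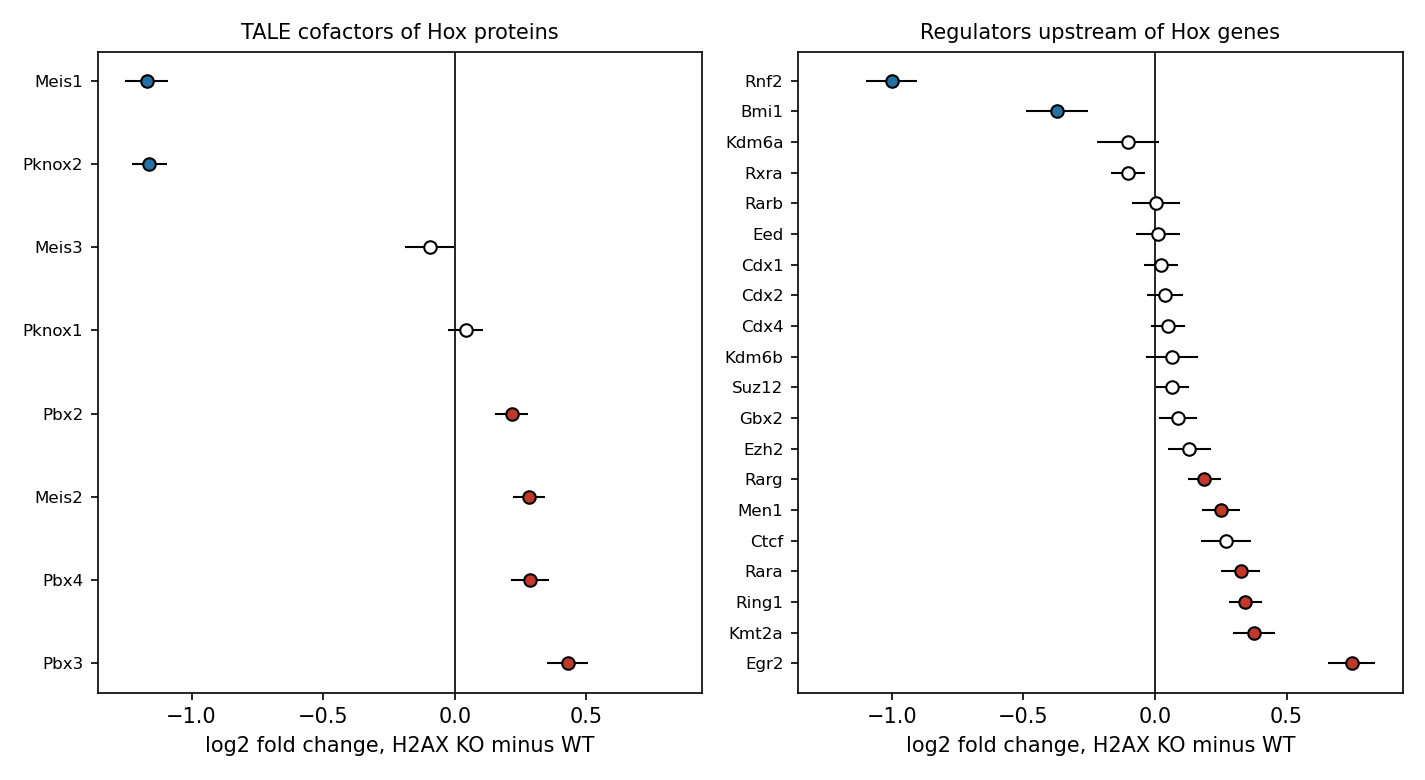
Log2 difference of H2AX KO minus WT with its standard error for the Hox partner genes and the regulators of Hox genes, with blue points for lower genes, red points for higher genes and open points for genes not called. Meis1, Pknox2 and Rnf2 lie lowest, and Egr2 is the highest at 0.75.

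Promoters are shown for the member with the largest fall, Hoxa5, and for a pair of paralogs, of which Hoxb4 was lower and Hoxd4 was not called. Each is 250 bases before to 50 after the start of the RefSeq gene (GRCm38.p6), with CG pairs in capitals:
Hoxa5, chr6:52204538-52204837, - strand: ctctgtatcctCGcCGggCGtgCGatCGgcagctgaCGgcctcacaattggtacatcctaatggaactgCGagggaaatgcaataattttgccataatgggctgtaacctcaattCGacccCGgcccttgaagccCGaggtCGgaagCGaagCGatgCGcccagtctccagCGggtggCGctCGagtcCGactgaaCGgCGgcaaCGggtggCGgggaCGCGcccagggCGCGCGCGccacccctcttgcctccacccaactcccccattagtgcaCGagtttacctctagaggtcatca
Hoxb4, chr11:96318017-96318316, + strand: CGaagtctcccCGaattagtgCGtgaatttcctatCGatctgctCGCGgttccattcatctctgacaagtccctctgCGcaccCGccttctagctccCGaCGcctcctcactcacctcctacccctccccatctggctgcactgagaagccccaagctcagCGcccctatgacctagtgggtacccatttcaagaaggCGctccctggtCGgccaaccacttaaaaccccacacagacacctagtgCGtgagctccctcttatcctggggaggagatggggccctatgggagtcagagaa
Hoxd4, chr2:74721728-74722027, + strand: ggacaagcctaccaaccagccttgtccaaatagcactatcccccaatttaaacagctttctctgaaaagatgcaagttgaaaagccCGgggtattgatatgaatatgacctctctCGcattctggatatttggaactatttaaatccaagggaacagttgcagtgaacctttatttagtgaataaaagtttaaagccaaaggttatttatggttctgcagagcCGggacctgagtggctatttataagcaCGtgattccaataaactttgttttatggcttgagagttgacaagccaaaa
They hold 29, 14 and 4 CG pairs.

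RefSeq tables matched 23 promoters of 21 members, 7 of them promoters of lower members. These covered 7 of the 14 lower members, and Hoxb4 was the only HoxB gene among them. Most promoters of members not called were those of HoxD genes, so the sets also differ in cluster. The median number of CG pairs was 14 for lower members (4 to 29) and 20 for members not called (4 to 45), beside 7 for all 32851 promoters, and the ranges overlapped. The letters TTTATG, a sequence bound by Cdx factors, were found on either strand in 5 of 23 member promoters, or 21.7%, against 11.9% of all promoters of the same length. CCAAT was in 60.9% of member promoters and 37.4% of all, TATAAA in 17.4% and 13.6%, and TGATNNAT, a Pbx and Hox letter pattern, in 17.4% and 8.85%. Such a match is a description and not a site.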

How the data were processed

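Total RNA from H2AX KO and WT MEFs, 3 arrays each, was hybridised to Affymetrix Gene ST arrays. The authors made CHP files with Affymetrix Expression Console and normalised the arrays, from their CEL files, in Partek (version 6.6). They deposited log2 expression values of 35556 probe sets. The methods name version 2.0 of the array, but the deposited identifiers are those of version 1.0, and the labels describe oligo(dT) labelling. The background correction and summarization were among the steps not given in the sources used here, and no genome build is named. Probe sets with 1 gene symbol were kept (21789), symbols were updated through RefSeq (GRCm38.p6), and the probe set with the highest mean was taken where a gene had several. Probe sets with several symbols (1621) and those not listed (12146) were left out.

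H2AX KO and WT arrays were compared with limma (version 3.58.1, R 4.3.3), with no covariates, and Benjamini-Hochberg adjustment over 19938 genes. On simulated data drawn from these arrays, limma recovered 97% of changes of 1.5 log2 units and 65% of changes of 0.5 log2 units, with 7 false calls among 19938 genes. With 3 arrays against 3, an exact permutation test cannot go below 0.1. Arrays of a genotype shared at most 0.0872% of identical values. Members, lists and tests were chosen with earlier results of these data known. Named genes were the members, H2ax, and up to 3 called genes with the largest differences in each other list. Further names were chosen after values were seen.

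Alternatives were a replicate block, one-way ANOVA, the loss of each array in turn, a robust variance prior with an intensity trend, arrays centred on their medians or quantile-normalised, a filter on the dimmest 50% of genes, and averaged probe sets. Same-numbered arrays did not deviate together (correlations -0.29, -0.24 and 0.08). The number of arrays limits the precision.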

Additional observations from a re-analysis of the deposited data

How the results depend on the processing

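The 14 lower members stayed lower wherever they were tested, and the 9 HoxD genes were called in none of the alternatives. With a replicate block 14 members were lower and 0 higher, although the numbers did not pair the arrays. Leaving out 1 array gave 14 to 15, the added gene being Hoxa10, which also passed with trend and robust estimation (adjusted p = 0.047 from limma). Without the lowest 50% of genes, where only 9 members were tested, 8 were lower, with 3 in HoxA. Among 373 alternative values of single members, the call changed in 2, both of Hoxa10. Sign changes numbered 9, in 4 members that were not called.

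Smaller lists were less stable. Partner genes numbered 1 lower without the lowest 50% of genes and 2 to 4 higher when 1 array was left out (2 without WT replicate 2). Regulators numbered 1 to 2 lower when 1 array was left out (1 without H2AX KO replicate 2, WT replicate 2 or WT replicate 3) and 1 lower by one-way ANOVA or median centring. Cluster non-coding RNAs numbered 1 lower with a replicate block, by one-way ANOVA and with median centring, 1 to 2 lower and 0 to 1 higher when 1 array was left out (1 lower without H2AX KO replicate 1, H2AX KO replicate 3 or WT replicate 2, and 1 higher without WT replicate 3), and 0 lower without the lowest 50% of genes. Neighbouring genes numbered 3 lower by one-way ANOVA, 3 to 6 lower and 1 to 4 higher when 1 array was left out (3 lower without WT replicate 2 or 3, and 1 higher without any array but H2AX KO replicate 2), and 1 higher with a replicate block. The cause was not tested. The genes Hoxa2, Hoxa10, Hoxa11, Hoxa13, Hoxb13 and all HoxD genes but Hoxd9 lay below the faint-signal guide in both genotypes, which limits what these arrays can show there.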
